A study of Homo sapiens with 6 samples.

Results

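The genes described here encode the IGF-binding proteins IGFBP1 to IGFBP7, the protease PAPPA and the stanniocalcins STC1 and STC2. They were taken by gene symbol from the deposited count table, and all 10 were found among its 58735 genes. RNA sequencing covered 6 libraries of A549, an established line from a human lung adenocarcinoma, labelled as alveolar epithelial cells. All 6 were given PQ (paraquat, a herbicide that redox-cycles to superoxide) and are labelled 48 h. In 3 of them PQ was given alone (PQ), and the other 3 also received SS-31, a mitochondria-targeted peptide (PQ+SS-31). The doses are not given in the sources used here, and no library without PQ was analysed here.

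IGF-binding proteins are secreted and hold the growth factors IGF1 and IGF2 away from their receptor, IGF1R. Cleavage of a binding protein releases the growth factor again. PAPPA is a secreted metalloprotease that cuts IGFBP4, and also IGFBP5 and IGFBP2. STC1 and STC2 bind PAPPA and inhibit it. In lung cancer cells this axis is known mainly for its part in growth and survival signalling. The family was chosen by gene name, but with the fold changes of PQ+SS-31 against PQ known, in which IGFBP1 was among the largest falls. The values of that comparison are therefore given for the 10 genes as a description, with no p-value, and nothing is supported with them.

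Library totals ranged from 16332061 to 17576827 counts. Nothing in the labels says that replicates were separate cultures, so the spread between them may be technical. PQ replicate 3 stood apart on the first principal component of log2 CPM (39.4% of the variance), at 32.4 against -15.9 and -31.5 for PQ replicates 1 and 2. With SS-31, replicates 1 and 3 lay on its side at 16.8 and 12.5, and replicate 2 at -14.3. Of 11 lung epithelial markers, 5 exceeded a mean of 1 CPM, led by the keratins KRT8 and KRT18. NKX2-1 had 0 counts, and EPCAM and the surfactant genes SFTPB, SFTPC, SFTPA1 and SFTPD were under 1 CPM. The summed epithelial markers, mostly KRT8 and KRT18, were at 1640 to 1891 CPM with PQ and 2310 to 2683 CPM with PQ+SS-31. KRT8, KRT18 and CDH1 were higher in every PQ+SS-31 library than in any PQ library. KRT19 (13.7 to 16.0 CPM with PQ and 11.7 to 14.2 CPM with PQ+SS-31) and NAPSA overlapped between groups. The part of these markers in the results below was not tested. Endothelial, immune and hepatocyte markers each summed to less than 1 CPM in every library. The 6 fibroblast markers summed to 11.1 to 18.7 CPM with PQ and 14.8 to 22.8 CPM with PQ+SS-31.

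With SS-31, transcripts of IGFBP1, IGFBP3 and STC1 fell, and those of no member rose past the threshold. The threshold was an adjusted p of 0.05 in edgeR's quasi-likelihood fit over 15550 genes. Of the 10 genes, 9 passed the filter on low counts and were tested, and 3 were called lower and 0 higher. Over all tested genes 0.463% were called lower, 0.129% higher and 0.592% in either direction. The groups did not overlap in 6 of the 9, with PQ above in 4 and below in 2, where 18.0% of all tested genes had groups that do not overlap. The median log2 fold change of the 9 genes was -0.05, against 0.00 over all tested genes. Since the genes were chosen with this comparison known, nothing is read from these shares.

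**Figure D1:**
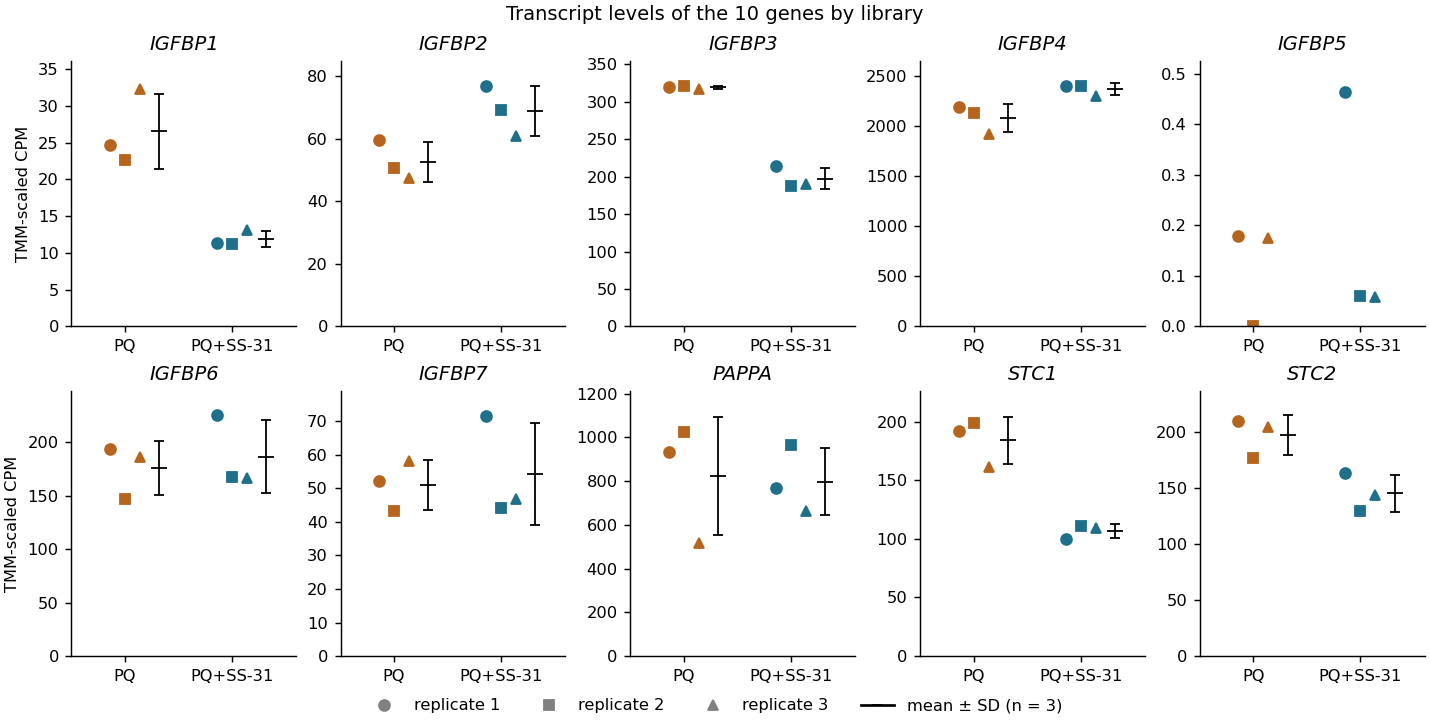
TMM-scaled CPM of each gene in the 3 PQ and 3 PQ+SS-31 libraries, with the mean and SD of each group (none is drawn for IGFBP5, which had 0 to 8 counts). IGFBP1, IGFBP3, STC1 and STC2 were lower in every PQ+SS-31 library than in any PQ library, and IGFBP2 and IGFBP4 were higher.

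IGFBP1, a small binding protein that liver secretes when insulin is low and that many cells induce under stress, had the largest change among the members. Its level in CPM (counts per 1000000 after TMM scaling) was 24.7, 22.6 and 32.3 in PQ replicates 1, 2 and 3. With SS-31 it was 11.3, 11.2 and 13.1 in the replicates of the same order. Every PQ library lay above every PQ+SS-31 library, and PQ replicate 3 was the highest of all. The mean fell from 26.5 ± 5.13 to 11.9 ± 1.07 CPM (SD, n = 3), which is 2.24-fold, with a log2 fold change of -1.16 ± 0.15 (SE). Without PQ replicate 3 the log2 fold change was -1.001 ± 0.13 and passed the threshold. Of the 6 refits with 1 library left out, IGFBP1 passed in only 2. In bulk libraries such as these, fewer cells with the transcript and less of it per cell cannot be told apart.

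IGFBP3, the main IGF carrier of serum and a protein also known to act on cells without IGF, was even among PQ libraries, at 320.0, 320.9 and 317.1 CPM. The PQ+SS-31 libraries had 214.5, 188.2 and 190.1 CPM, all lower, so the gap between groups far exceeded the spread within either. The mean fell 1.62-fold, from 319 ± 1.97 to 198 ± 14.6 CPM (SD, n = 3), and the log2 fold change was -0.69 ± 0.09 (SE). IGFBP1 and IGFBP3 are neighbours on chromosome 7 (GRCh38). IGFBP1 lies on the plus strand at 45888357 to 45893668 and IGFBP3 on the minus strand at 45912245 to 45921874. Their ends face each other across 18576 bases, with 0 annotated genes between.

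The other neighbouring pair, IGFBP2 and IGFBP5 on chromosome 2, has the same arrangement across 7668 bases, also with 0 genes between. IGFBP2, which is abundant in fetal tissues and many tumours, was at 59.6, 50.7 and 47.6 CPM with PQ and at 77.0, 69.3 and 61.0 CPM with PQ+SS-31. The groups did not overlap, but PQ replicate 1 and PQ+SS-31 replicate 3 nearly met, and the log2 fold change of 0.39 ± 0.12 (SE) did not pass. IGFBP5, which binds matrix and is cut by PAPPA, was barely detected, with 3, 0 and 3 counts in the PQ libraries and 8, 1 and 1 with SS-31. It failed the filter on low counts and was not tested, and its values cannot show a difference at this depth.

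IGFBP4, the best-known PAPPA substrate and an inhibitor of IGF action, was the most abundant member. It stood at 2193, 2124 and 1924 CPM with PQ and at 2401, 2399 and 2296 CPM with PQ+SS-31. The PQ+SS-31 libraries were all higher, by 1.14-fold in the mean, from 2080.4 ± 139.6 to 2366 ± 60.0 CPM (SD, n = 3). The log2 fold change of 0.19 ± 0.10 (SE) did not pass. IGFBP6, which prefers IGF2, ranged from 147 to 194 CPM with PQ and from 166 to 226 CPM with PQ+SS-31, and the groups overlapped. IGFBP7, which binds IGFs only weakly, ranged from 43.1 to 58.0 and from 44.2 to 71.6 CPM. PQ+SS-31 replicate 1 was the highest library for both, and the log2 fold changes were 0.09 ± 0.15 for IGFBP6 and 0.09 ± 0.19 for IGFBP7 (SE). Both changed sign when PQ replicate 2 was left out (-0.03 and -0.02) and when PQ+SS-31 replicate 1 was (-0.07 and -0.16). IGFBP7 overlaps POLR2B on the opposite strand, and whether counting used strand is not given, so reads from that overlap cannot be told apart.

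PAPPA differed more within groups than between them. PQ replicates 1, 2 and 3 had 934, 1023 and 517 CPM, and the replicates with SS-31, in the same order, had 768, 965 and 661 CPM. PQ replicate 3 was far below the other PQ libraries, while the group means of 825 ± 270 and 798 ± 154 CPM (SD, n = 3) were close. The 3 libraries with the lowest PAPPA were the 3 with positive scores on the first component, which are replicate 3 of each group and PQ+SS-31 replicate 1. The log2 fold change was -0.05 ± 0.24 (SE), and it ran from -0.30 without PQ replicate 3 to 0.14 without PQ replicate 2. This SE was the widest of the 9 tested members. The antisense genes PAPPA-AS1, PAPPA-AS2 and AL137024.1, which lie within PAPPA, had at most 9 counts in any library.

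STC1, a glycoprotein hormone that inhibits PAPPA without a covalent bond, fell. Its PQ libraries had 192, 199 and 161 CPM, and its PQ+SS-31 libraries 99.6, 111 and 109.5 CPM. Every PQ library was higher, although PQ replicate 3, the highest for IGFBP1, was the lowest of the PQ libraries for STC1. The mean went from 184 ± 20.2 to 107 ± 6.11 CPM (SD, n = 3), a 1.73-fold fall, with a log2 fold change of -0.79 ± 0.10 (SE). STC2, which inhibits PAPPA through a disulfide bond and is a known target of the stress factor ATF4, was at 210.1, 177 and 205 CPM with PQ. With SS-31 it was at 163, 130 and 143 CPM, so the groups did not overlap. The means were 197 ± 17.8 and 145 ± 16.7 CPM (SD, n = 3), and the log2 fold change of -0.44 ± 0.11 (SE) did not pass. It did pass in 3 of the 8 alternative settings, which were no filter on low counts, DESeq2 and the replicate number as a block.

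**Figure D2:**
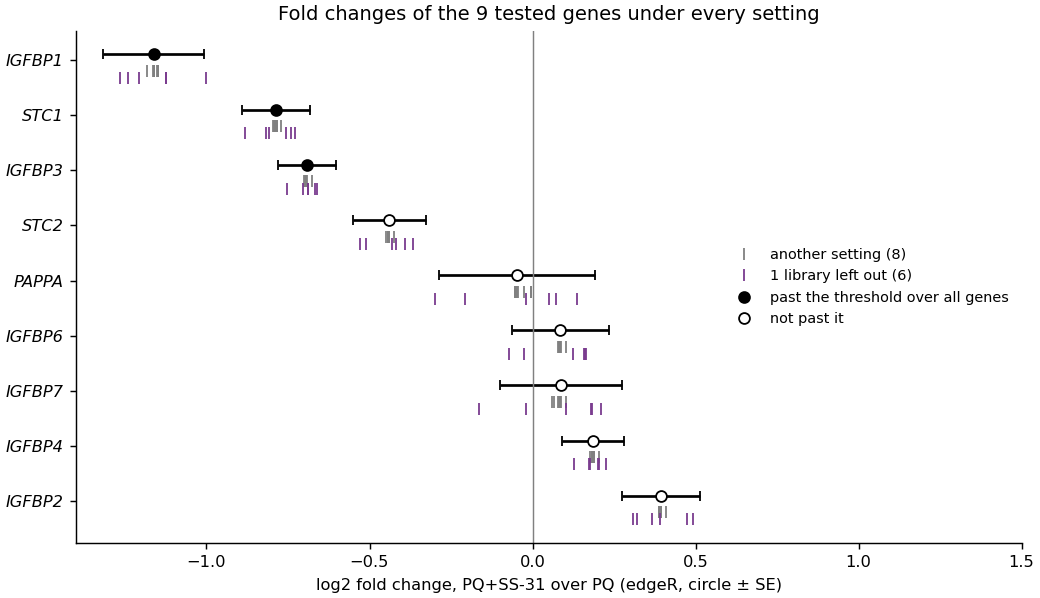
Log2 fold change of PQ+SS-31 over PQ for the 9 tested genes, as fitted by edgeR (circles ± SE, filled where past the threshold), under 8 other settings (grey ticks) and with 1 library left out (purple ticks). IGFBP1, STC1, IGFBP3 and STC2 stayed below 0 and IGFBP2 and IGFBP4 above 0 under all 14 alternatives, while PAPPA, IGFBP6 and IGFBP7 lay on both sides. The genes that kept their sign are those whose groups do not overlap, so leaving out a library could hardly reverse it.

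The size of the 3 falls moved little when a library was left out, but the calls did not hold. The direction of the falls could hardly change, since the groups did not overlap for these genes. The log2 fold change ran from -1.26 to -1.001 for IGFBP1, from -0.75 to -0.66 for IGFBP3 and from -0.88 to -0.73 for STC1 over the 6 refits. All 3 were called without PQ replicate 3. IGFBP1 alone was called without PQ replicate 2, and none of the 3 without PQ replicate 1 or any single PQ+SS-31 library. Calls over all genes also dropped in those refits, to between 0 and 10 lower and 0 higher.

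Compared per length, the order of the members was IGFBP4, IGFBP6, PAPPA, IGFBP3, STC1, STC2, IGFBP7, IGFBP2, IGFBP1 and IGFBP5. The scale is TMM-scaled CPM per kilobase, with the deposited gene lengths. IGFBP4 averaged 1010.4 over the 6 libraries and IGFBP6 135, and the ranges of these genes overlapped neither each other nor those of the rest. PAPPA at 70.1, IGFBP3 at 56.5, STC1 at 35.0, STC2 at 28.0 and IGFBP7 at 27.3 followed, and each overlapped the next in range over both groups together. Group by group, IGFBP3 was above STC1 in all 6 libraries, with no overlap in either group. STC1 was above STC2 with PQ, without overlap, but not beyond the spread with PQ+SS-31. PAPPA overlapped IGFBP3 with PQ and was above it in all 3 libraries with PQ+SS-31. STC2 and IGFBP7 overlapped in both groups and did not differ beyond their spread, and IGFBP7 was above IGFBP2 in all 6 libraries. IGFBP2 at 12.8 and IGFBP1 at 11.6 also overlapped over all 6 libraries, but traded places between groups. With PQ, IGFBP1 was above IGFBP2 (16.1 ± 3.10 against 11.04 ± 1.31, SD, n = 3) in all 3 libraries, and with PQ+SS-31 it was below (7.18 ± 0.645 against 14.5 ± 1.68) in all 3. In CPM, before division by length, IGFBP2 was above IGFBP1 in all 6 libraries. Their change of order therefore depends on the deposited lengths, 4767 bases for IGFBP2 and 1653 for IGFBP1. Other parts of the order depend on the lengths too. In CPM, PAPPA (means of 825 with PQ and 798 with PQ+SS-31) was above IGFBP6 (176 and 187). STC1 and STC2 overlapped in CPM with PQ, and STC2 was above IGFBP7 in every library. IGFBP5 was last at 0.02. Levels as TPM gave the same order for all 10 genes, but they use the same counts and lengths, so this is no check of the order.

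**Figure D3:**
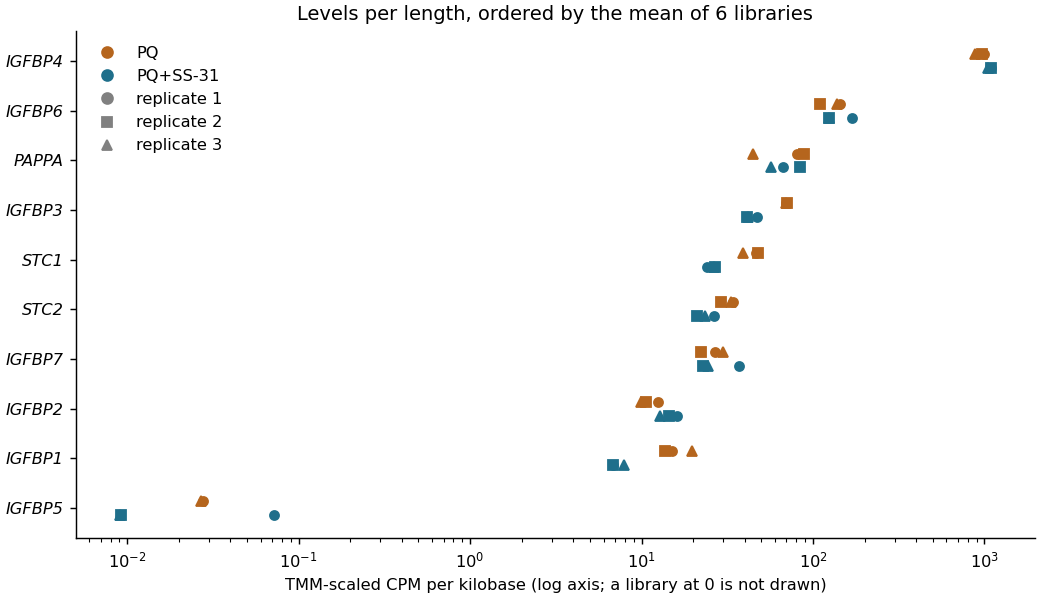
TMM-scaled CPM per kilobase (log axis) of the 10 genes in each library, ordered by the mean of 6 libraries. IGFBP4 lay above all other members in every library. On this scale IGFBP1 and IGFBP2 changed order between PQ and PQ+SS-31, which depends on the deposited gene lengths.

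Within a library, proportions on this per-length scale do not depend on the scaling between libraries. IGFBP4 made up 78.6 to 82.6% of the summed IGFBP1 to IGFBP6 level with PQ and 82.1 to 85.4% with PQ+SS-31. IGFBP3 made up 5.65, 6.00 and 6.24% in PQ replicates 1, 2 and 3 and 3.53, 3.22 and 3.38% in PQ+SS-31 replicates 1, 2 and 3. The share of IGFBP1 was 1.17 to 1.76% with PQ and 0.513 to 0.644% with PQ+SS-31. Neither share overlapped between groups, but both come from the same counts as the falls above and add no separate support. The summed level of these genes averaged 1173 ± 63.1 in the PQ libraries and 1279 ± 49.8 in those given SS-31 too (SD, n = 3), so the falls of IGFBP1 and IGFBP3 were small beside the level of IGFBP4.

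The inhibitors can be set against the protease in the same way. The ratio of STC1 to PAPPA was 0.573, 0.543 and 0.869 in PQ replicates 1, 2 and 3 and 0.362, 0.320 and 0.462 in PQ+SS-31 replicates 1, 2 and 3, with no overlap. The ratio of STC2 to PAPPA was 0.327 to 0.748 with PQ and 0.254 to 0.410 with PQ+SS-31, and overlapped. PQ replicate 3 had the highest value of both ratios and the lowest PAPPA. These are transcript ratios from the same counts as the changes above, and no protein or protease activity was measured here.

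**Figure D4:**
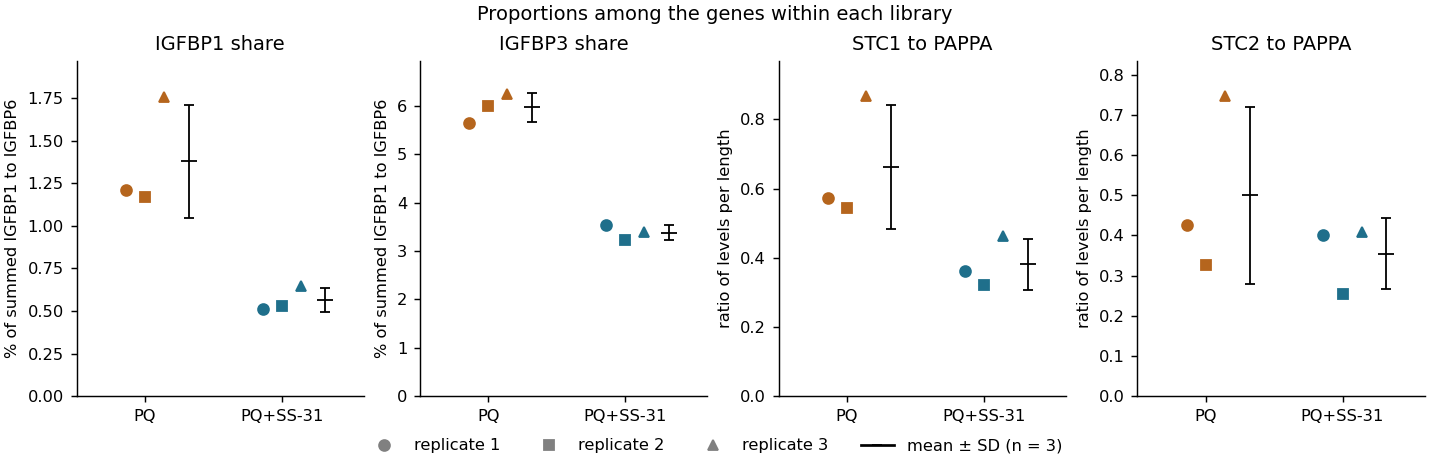
Share of IGFBP1 and of IGFBP3 in the summed IGFBP1 to IGFBP6 level (%), and ratios of STC1 and STC2 to PAPPA, all from levels per length within each library, with mean and SD of 3 libraries. The groups were apart for the first 3 quantities and overlapped for STC2 to PAPPA. The first 3 mostly restate the falls of IGFBP1, IGFBP3 and STC1 in the same libraries.

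Promoter windows from RefSeq (GRCh38.p14, 250 bases before to 50 after a start) were used for IGFBP2, IGFBP3, IGFBP4, IGFBP5, IGFBP6, PAPPA and STC2, 9 windows in all. They are shown for IGFBP3, which fell, for STC2, whose groups did not overlap, and for IGFBP4 and PAPPA, the abundant substrate and its protease. Each is written 5′ to 3′ on the strand of the gene, and capitals mark the motif matches described after them.
IGFBP3 promoter, chr7:45921223-45921522, minus strand: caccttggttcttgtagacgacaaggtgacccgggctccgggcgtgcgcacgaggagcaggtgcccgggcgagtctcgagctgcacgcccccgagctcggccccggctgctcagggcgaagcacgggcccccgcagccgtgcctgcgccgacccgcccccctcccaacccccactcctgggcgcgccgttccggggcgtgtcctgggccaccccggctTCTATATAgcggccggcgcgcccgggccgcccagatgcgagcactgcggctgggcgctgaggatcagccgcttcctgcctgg
STC2 promoter, chr5:173328365-173328664, minus strand: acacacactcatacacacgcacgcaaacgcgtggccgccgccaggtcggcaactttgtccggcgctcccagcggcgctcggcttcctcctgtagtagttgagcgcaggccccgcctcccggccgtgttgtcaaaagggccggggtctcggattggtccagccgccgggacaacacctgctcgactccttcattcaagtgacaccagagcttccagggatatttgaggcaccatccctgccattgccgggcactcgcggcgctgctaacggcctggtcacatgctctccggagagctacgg
IGFBP4 promoter, chr17:40443200-40443499, plus strand: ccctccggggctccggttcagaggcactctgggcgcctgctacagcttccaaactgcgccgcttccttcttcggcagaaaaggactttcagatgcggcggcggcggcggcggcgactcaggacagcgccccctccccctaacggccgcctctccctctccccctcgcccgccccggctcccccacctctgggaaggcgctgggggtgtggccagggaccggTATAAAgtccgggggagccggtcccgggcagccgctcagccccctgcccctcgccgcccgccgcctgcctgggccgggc
PAPPA promoter, chr9:116153541-116153840, plus strand: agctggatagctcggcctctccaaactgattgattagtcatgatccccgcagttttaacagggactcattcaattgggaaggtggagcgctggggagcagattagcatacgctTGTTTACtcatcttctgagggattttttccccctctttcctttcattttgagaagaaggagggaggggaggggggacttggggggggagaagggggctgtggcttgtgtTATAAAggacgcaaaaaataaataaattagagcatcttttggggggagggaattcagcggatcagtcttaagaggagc

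Both strands were searched for 7 short motifs. They were ACGTG for hypoxia factors, TGANTCA for AP-1, TGATGNAA for ATF4 with its CEBP partners and TGACGTC for CREB and ATF proteins. For FOXO factors TGTTTAC was searched, and also CAAAACA. The TATA box motif TATANA was added after the windows were read. The FOXO motif TGTTTAC stood in PAPPA, 137 bases before the start, and on the minus strand of IGFBP6, and 3.42% of 35116 promoter windows held it. The TATA motif began 28 to 32 bases before the start in IGFBP3 (overlapping matches on both strands), IGFBP4 and PAPPA. Of all windows, 19.0% held it anywhere on either strand, and the share with it at this position was not counted. For hypoxia factors only the letters ACGTG were searched, and they were found in 1 of the 3 IGFBP2 windows, against 21.4% of all windows. The AP-1, ATF4, CREB and second FOXO motifs matched 0 of the 9 windows, and 7.71%, 3.62%, 3.45% and 4.92% of all windows. No window was used for IGFBP1 and STC1, which also fell, or for IGFBP7, so these counts do not cover them. The IGFBP3 window was 74.7% G and C, that of IGFBP4 74.0%, that of STC2 64.0% and that of PAPPA 48.7%. A match is a run of letters only, and no match says only that these letters are not in this window.

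The rest of the IGF axis was read from 104 genes listed by role, of which 88 were tested. By edgeR 0 of them were called in either direction, while an unadjusted p of 0.05 was passed by 8 on the higher and 8 on the lower side. Of all 15550 tested genes, 5.62% passed the unadjusted p on the higher and 5.94% on the lower side. With DESeq2, PDK4 was called higher and FOXO3 and SOCS3 lower, and limma-voom called 0. The median log2 fold change of the 88 was -0.05, and 54 of them were negative, where 49.9% of all tested genes were.

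The ligands were nearly absent. IGF1 and INS, which encodes insulin, had 0 counts in all 6 libraries, which allows a level of up to 0.174 to 0.190 CPM from 3 counts in each library. IGF2 averaged 0.554 ± 0.351 CPM in the PQ group and 0.724 ± 0.304 CPM in the other (SD, n = 3), from 3 to 17 counts a library. The receptor IGF1R was at 414 ± 73.5 and 428 ± 51.4 CPM, IGF2R, which clears IGF2, at 220.0 ± 44.1 and 195 ± 18.5 CPM, and the insulin receptor INSR at 29.5 ± 7.53 and 28.2 ± 6.20 CPM. Their groups overlapped, and the log2 fold changes were 0.05, -0.17 and -0.06. IGFALS, the third part of the serum complex with IGFBP3, had at most 8 counts in a library. Among 5 tested partners of the binding proteins, ITGA5, a subunit of the integrin that IGFBP1 binds, was at 289 ± 14.8 and 330 ± 19.7 CPM (edgeR adjusted p = 0.477). LRP1, an endocytic receptor reported to bind IGFBP3, was at 351 ± 103 and 277 ± 62.5 CPM (edgeR adjusted p = 0.655).

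Of 12 tested other proteases, 8 had a positive log2 fold change, and the median was 0.13. The groups did not overlap in 6 of the 12, with PQ above in 2 and below in 4, beside 18.0% of all tested genes. PQ was below for ADAM9, HTRA1, MMP2 and PRSS23, with log2 fold changes of 0.14, 0.17, 0.21 and 0.23. PQ was above for PAPPA2 and MMP1. PAPPA2, which cuts IGFBP3 and IGFBP5, was at 7.65, 7.40 and 5.06 CPM with PQ and at 4.05, 4.16 and 4.02 CPM with PQ+SS-31 (log2 fold change -0.72 ± 0.20 SE, edgeR adjusted p = 0.195). PAPPA2 passed without PQ replicate 3 (edgeR adjusted p = 0.0292), but in no other refit with 1 library left out. MMP1, a collagenase, was at 1.17 ± 0.306 and 0.387 ± 0.371 CPM (edgeR adjusted p = 0.334). PRG2, which forms an inhibited complex with PAPPA in pregnancy, had 0 counts in every library. Of 9 tested genes that encode an IGFBP-type amino-terminal domain, NOV was at 7.60 ± 0.662 and 5.46 ± 0.675 CPM and WISP1 at 1.202 ± 0.353 and 2.20 ± 0.261 CPM (edgeR adjusted p = 0.294 for each), so that these relatives lay on opposite sides of 0.

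Of 29 tested genes of signalling below the receptors, 20 had a negative log2 fold change, with a median of -0.08, beside 49.9% of all tested genes. SOCS3, a feedback inhibitor of cytokine and insulin signalling, was at 117 ± 7.34 and 92.0 ± 4.73 CPM (edgeR adjusted p = 0.151). The kinase AKT1 was at 109 ± 0.556 and 132 ± 2.34 CPM (edgeR adjusted p = 0.181). Of 17 factors known to act on the IGFBP1 gene, 15 had a negative log2 fold change, with a median of -0.08, beside the same 49.9%. FOXO3, a factor that insulin signalling keeps out of the nucleus, was at 55.5 ± 8.53 and 39.5 ± 2.17 CPM (edgeR adjusted p = 0.142), and AHR, the dioxin receptor, at 56.2 ± 6.95 and 42.4 ± 2.48 CPM (edgeR adjusted p = 0.181). Both passed without PQ replicate 3 (adjusted p = 0.00957 and 0.0206). Of 9 tested other FOXO targets, PDK4, an inhibitor of pyruvate dehydrogenase, was on the opposite side from IGFBP1, at 84.4 ± 3.36 and 113 ± 2.28 CPM (edgeR adjusted p = 0.0606). It too passed without PQ replicate 3 (adjusted p = 0.0467). Over all genes that refit called 125 higher and 203 lower. No other refit with 1 library left out called FOXO3, AHR or PDK4. CCNG2 was at 12.9 ± 2.25 and 9.88 ± 1.47 CPM (edgeR adjusted p = 0.457). The IGF2 mRNA-binding proteins share only the name, and IGF2BP1 and IGF2BP2 had log2 fold changes of -0.09 and -0.10 with overlapping groups.

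Genes with the most similar pattern over the 6 libraries were found by the root mean square difference of centred log2 CPM among 10873 genes that code for protein and average 5 CPM or more. For IGFBP1 the closest was NR1D1, a circadian repressor, with a difference of 0.0961, followed by GEM, DUSP5, CORO2B and BEX2 at 0.142 to 0.180. NR1D1 shared the high PQ replicate 3 of IGFBP1, at 45.3, 43.0 and 54.0 CPM with PQ and 21.2, 20.5 and 27.5 CPM with PQ+SS-31. For IGFBP3 the closest was EMP1, a membrane protein, at 0.0302, followed by SEMA7A, SPHK1, CXCL8 and SPP1 at 0.0437 to 0.0589. EMP1 was at 29.3, 27.7 and 27.8 CPM with PQ and at 18.4, 16.6 and 16.8 CPM with PQ+SS-31. For STC1 the closest were PPP1R3B, a glycogen-targeting phosphatase subunit, at 0.0546 and TMEM159 at 0.0549, followed by AKNA, KLF6 and FRMD6 at 0.0692 to 0.0813. The lists of the 3 members shared no gene, but the measure favours genes with a fold change close to that of the member. The likeness includes the group difference, so it is a description of the same 6 libraries.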

How the data were processed

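The authors deposited 1 table of raw gene counts for the 6 libraries, with gene lengths. The submitters' processing notes name featureCounts 1.5.0-p3, HISAT2 2.0.5, DESeq2 1.20.0 and CASAVA, and the mouse build mm10. All 58735 gene IDs, however, have the position and strand of human GENCODE 29 genes on GRCh38. Whether counting used strand is not stated in the labels. Columns were matched to samples by group letter and replicate number in the titles, and 0 sample columns were left out. Counts were filtered with filterByExpr, scaled with TMM and tested with edgeR 4.0.16 (R 4.3.3) by its quasi-likelihood test, with Benjamini-Hochberg adjustment over 15550 genes. SEs were derived from the test statistic. The test was checked on simulated data. Alternatives included DESeq2 1.42.0 and limma-voom (limma 3.58.1). Replicate pairs differed by more than sampling noise (chi-square per degree of freedom of 7.34 to 35.6), so all libraries were counted. Members, lists and tests were chosen with earlier results of these data known. Named genes are all members, up to 2 per list with the smallest p, and the 5 most similar genes for each called member. INSR, IGF1, INS, IGFALS, PRG2, ADAM9, HTRA1, MMP2 and PRSS23 were named outside this rule, after their values were seen. A planned comparison of protein sequences was not run.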

Additional observations from a re-analysis of the deposited data

How the results depend on the processing

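The members called lower were 3 under RLE factors, upper-quartile factors, library size alone, a filter of 1 CPM in 3 libraries and limma-voom, and 4 (with STC2) without a filter, with DESeq2 and with the replicate number as a block. The members called higher were 0 in all 14 alternatives. Leaving out 1 library gave 0 to 3 lower. PAPPA changed sign in 3 such refits (range -0.30 to 0.14), IGFBP6 in 2 (-0.074 to 0.163) and IGFBP7 in 2 (-0.16 to 0.21). The cause was not tested.

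Over all genes, 20 were called higher and 72 lower. Without a filter there were 156 and 237, with DESeq2 110 and 184, and with library size alone 13 higher and 56 lower. Leaving out 1 library gave 0 to 125 higher and 0 to 203 lower, the highest without PQ replicate 3. The 0 and 0 without PQ+SS-31 replicate 3 came with 597 genes on the higher and 659 on the lower side past an unadjusted p of 0.05. Of the other IGF-axis genes, 1 was higher with upper-quartile factors (PDK4), 1 higher and 2 lower without a filter (PDK4, AHR, FOXO3) and 1 higher and 2 lower with DESeq2. Leaving out 1 library gave 0 to 1 higher and 0 to 3 lower.

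With the replicate number as a block, 66 genes were higher and 134 lower, and 1 IGF-axis gene (PDK4) was higher. The labels do not say whether same-numbered libraries were paired. Deviations from the group means of same-numbered libraries correlated at -0.09, 0.39 and 0.19, and PQ replicates 1 and 3 correlated best with another number. With 3 libraries a group, these correlations cannot decide whether the libraries were paired.

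At this depth IGFBP5, with 0 to 8 counts, cannot show a difference. The SE of 0.24 for PAPPA limits what 3 libraries a group can show of it.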
